A study of Mus musculus with 12 samples.

Results

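The stretch of mouse chromosome 5 described here runs from the edge of a Tbx3 enhancer across Tbx3, its noncoding neighbours and Tbx5, to 995 kb away at the last possible window start. Chromatin contacts of that enhancer were measured by 4C-seq. In this assay crosslinked chromatin is digested and ligated, and the fragments that have become joined to 1 site of interest, called the viewpoint, are read out by sequencing. The members are the deposited windows with a start on this side within that distance, chosen by position alone. There were 551 of them, among 1750 windows listed for this viewpoint and 17305 over the 3 viewpoints of the series. Each window is 10 kb wide and the next starts 1 kb later, so neighbours share most of their reads and are not independent. Coordinates are mm10, distances are taken from the edge of the viewpoint window, which ends where the first window starts (119592001), and values are counts per 1000 of a library's total.

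The 2 groups of 2 libraries were embryonic stem (ES) cells in 2i medium, which holds inhibitors of MEK and GSK3, and mouse embryonic fibroblasts (MEFs) in DMEM. ES replicate 1 is labelled V6.5, a single hybrid line, whereas the label of ES replicate 2 names no line. The MEFs came from E13.5 embryos heterozygous for an Oct4-GFP reporter, a cassette of the reprogramming factors OKSM, and rtTA3 (the series design names Rosa26-M2rtTA). No doxycycline is given for these samples. The comparison asks which contacts of the enhancer differ between the cell types. These libraries hold no RNA, so the identity of the cells could not be checked on marker genes. Nothing says that replicates were separate cultures. The p-values therefore rest only on the spread between these libraries, pooled over windows or loci, and that spread may be technical.

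Enhancers act on promoters at a distance, and 4C-seq reads how often an enhancer and a promoter lie close enough to be ligated. Tbx3 and Tbx5 are neighbouring genes of the T-box family of transcription factors. Tbx3 is expressed in pluripotent stem cells and in developing limb and heart, and Tbx5 is known for its role in heart and forelimb development. Contacts fall steeply with distance from any viewpoint, so a site is read against others at the same distance.

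The side holds 24 annotated genes, 10 protein-coding and 14 noncoding (GRCm38.p6, the assembly that mm10 names). The noncoding genes around Tbx3 are the long noncoding RNA genes Tbx3os1 (119611253 to 119671508), Gm16063 (119625942 to 119634462), Gm16064 (119646137 to 119659262) and Tbx3os2 (119685088 to 119691218). Tbx3 lies at 119670534 to 119684724, 78.5 kb from the viewpoint window, and Tbx5 at 119796514 to 119885220, 205 kb away. Upstream sequences from RefSeq (GRCm38.p6) were found for 11 of the 24 genes, and the 250 bases before a start are shown for 2 neighbours of Tbx3 and 1 of Tbx5, because they show where the assay can cut. DpnII, the first enzyme, cuts at GATC, and Csp6I, the second, at GTAC. Both sites read the same on either strand, do not overlap each other and are in capitals. Gm16064 starts in the called loci before Tbx3 (chr5:119645887-119646136, plus strand), Tbx3os2 in the called region behind it (chr5:119691219-119691468, minus strand), and Gm42017 between Tbx3 and Tbx5 (chr5:119786960-119787209, minus strand).
Gm16064: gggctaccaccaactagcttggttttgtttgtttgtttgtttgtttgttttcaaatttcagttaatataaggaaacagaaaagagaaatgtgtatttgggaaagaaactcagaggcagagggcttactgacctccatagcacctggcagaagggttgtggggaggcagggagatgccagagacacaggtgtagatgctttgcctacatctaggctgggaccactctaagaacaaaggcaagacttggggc
Tbx3os2: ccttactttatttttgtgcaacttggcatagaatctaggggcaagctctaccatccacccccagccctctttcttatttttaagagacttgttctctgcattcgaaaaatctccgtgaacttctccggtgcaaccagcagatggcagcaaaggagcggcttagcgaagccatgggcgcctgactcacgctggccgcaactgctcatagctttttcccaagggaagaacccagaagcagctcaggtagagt
Gm42017: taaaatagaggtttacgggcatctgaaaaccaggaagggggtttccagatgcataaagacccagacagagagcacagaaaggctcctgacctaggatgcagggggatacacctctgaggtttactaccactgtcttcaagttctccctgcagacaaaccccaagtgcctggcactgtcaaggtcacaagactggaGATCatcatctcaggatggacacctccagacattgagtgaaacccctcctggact
The stretches before Gm16064 and Tbx3os2 hold 0 GATC and 0 GTAC sites, and that before Gm42017 holds 1 GATC and 0 GTAC. Of 32851 upstream stretches of the same length in the table, 41.9% hold GATC and 31.5% GTAC. A stretch without GATC says only that no DpnII end lies in these letters of the reference.

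Depth differed widely. ES replicate 1 had a total of 6507 counts and ES replicate 2 of 379, and the MEF totals were 2871 for replicate 1 and 5342 for replicate 2. In ES replicate 2, 1 count is worth 2.64 per 1000 and 3 counts 7.92, and 326 of the 551 windows are listed at 0 in it, against 5 in ES replicate 1, 23 in MEF replicate 1 and 5 in MEF replicate 2. No window was listed with counts in fewer than 3 of the 4 libraries. Of 996 possible window starts on this side 551 were listed (55.3%), compared with 879 (88.3%) over the same distance on the other side of the viewpoint. The first 138 windows form an unbroken run to 119739000, and farther out the listed windows lie in shorter runs, making 42 in all. Windows with counts in fewer libraries, among them any contacted in MEFs alone, were not analysed here.

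ES cells contacted Tbx3 more than MEFs. Beyond Tbx5 the share of counts in listed windows was lower in ES cells, but the listing itself depended on MEF counts there. To set ES replicate 2 beside the deeper libraries, counts were summed over windows spaced 10 kb apart, in 5 stretches, and divided by the library total. A window value holds the counts of 9 kb, so these sums miss 1 kb in 10. The intervals are exact Clopper-Pearson 95% intervals and cover counting error only.

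Around Tbx3 itself (119662001 to 119692000), ES replicate 1 had 341 counts, 5.24% of its total (interval 4.71 to 5.81), and ES replicate 2 had 23 counts, 6.07% (3.89 to 8.97). MEF replicate 1 had 45 counts, 1.57% (1.15 to 2.09), and MEF replicate 2 had 89, 1.67% (1.34 to 2.05). Neither ES interval reached a MEF interval. The ES mean of 5.65% ± 0.59 was 3.50 times the MEF mean of 1.62% ± 0.07 (SD, n = 2 each). With all 30 pieces of 1 kb in place of the windows, the shares were 5.69% and 6.07% against 1.81% and 1.76%. With 2 libraries against 2 an exact two-sided permutation test cannot go below 0.333, the value found here, so no share can pass 0.05 by this test.

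Between the viewpoint and Tbx3 (119592001 to 119662000), the shares were 14.8% in both ES libraries (intervals 13.99 to 15.7 and 11.4 to 18.8), 11.9% in MEF replicate 1 (10.8 to 13.2) and 11.8% in MEF replicate 2 (10.9 to 12.6). The ES libraries lay above both MEF libraries here too, by 1.25-fold, although the interval of ES replicate 2 covers the MEF values. As a share of the counts of the side the order turned, with 58.0% and 57.7% in ES cells below 61.4% and 61.9% in MEFs. Behind Tbx3, up to Tbx5 (119692001 to 119782000), ES replicate 1 stood alone at 3.18% (2.77 to 3.64). ES replicate 2 had 6 counts there, 1.58% (0.58 to 3.41), beside 1.498% and 1.67% in the MEF libraries, so the groups overlapped.

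Over Tbx5 (119782001 to 119892000), ES replicate 1 was lowest at 0.492% (0.337 to 0.693), and ES replicate 2, with 4 counts, had 1.06% (0.288 to 2.68). The MEF libraries held 1.01% and 0.973%, inside the interval of ES replicate 2, and a difference between the cell types was not detectable at this depth. From there to 120592000, ES libraries held 1.84% (1.53 to 2.20) and 2.11% (0.916 to 4.12), and MEF libraries 3.45% (2.81 to 4.18) and 2.94% (2.50 to 3.43). Both ES libraries lay below both MEF libraries, at 1.98% ± 0.19 against 3.19% ± 0.36 (SD, n = 2 each), but ES replicate 2 had only 8 counts there and its interval covers both MEF values. Only 32 of the 70 windows of this tiling were listed there. With ES replicate 2 at 0, a window was listed only if both MEF libraries held counts. The lower ES share thus describes windows picked in part by their MEF counts. It cannot by itself be read as a difference between the cell types.

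**Figure D1:**
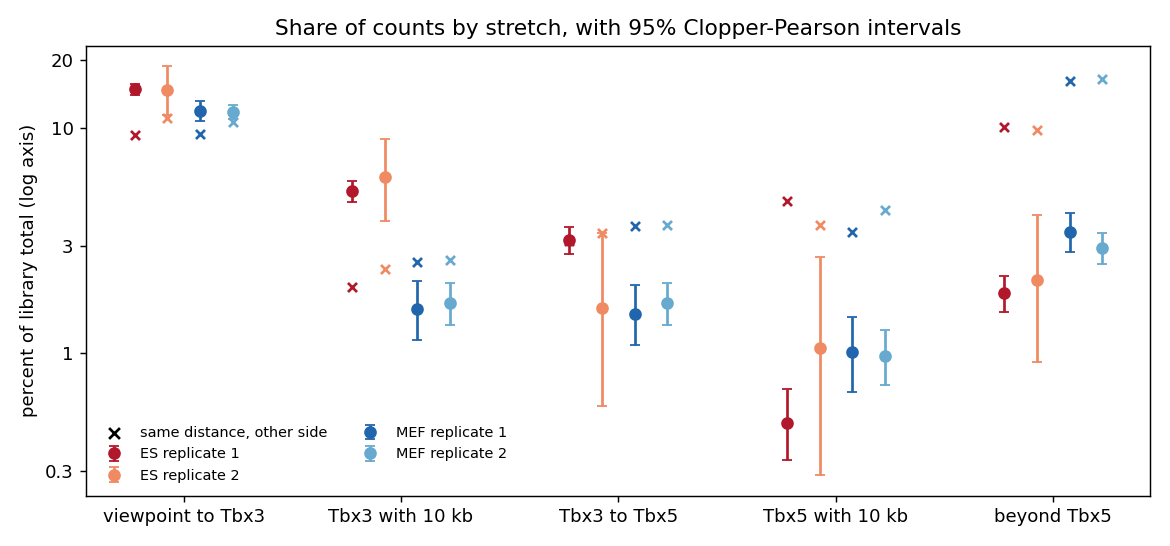
Share of each library's total (percent, log axis) in the 5 stretches, with filled points for the side of Tbx3 and Tbx5, 95% Clopper-Pearson intervals as bars and crosses for the same distance on the other side of the viewpoint. The ES points at Tbx3 sit at 5.24% and 6.07%, above MEF points at 1.57% and 1.67%, while beyond Tbx5 points and crosses are both lower in ES cells.

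The same distances on the other side of the viewpoint give values to set beside these. At the distance of Tbx3, that other side held 1.97% and 2.37% of the ES libraries and 2.54% and 2.60% of the MEF libraries. The Tbx3 stretch therefore had 2.66 and 2.56 times the counts of its counterpart in ES cells, and 0.616 and 0.640 times in MEFs. The log2 ratio of the sides was 1.38 in ES cells and -0.67 in MEFs, a difference of 2.05. For the stretch up to Tbx3 this difference was 0.30, between Tbx3 and Tbx5 0.68, and for Tbx5 -0.58. Beyond Tbx5 it was 0.03, and the other side was also lower in ES cells at that distance (9.92% ± 0.23 against 16.4% ± 0.21, SD, n = 2 each). The exact permutation p of these 5 differences was 0.333 for the first 3 and 0.667 for the other two. A ratio of sides does not depend on how a library is scaled, but it depends on which windows were listed. Between Tbx3 and Tbx5, 8 windows were summed on this side and 9 on the other. These numbers were 9 and 11 over Tbx5, and 32 and 60 beyond it.

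Over the whole side the ES libraries held 25.6% of their totals each, and the MEF libraries 19.5% and 19.0% (intervals 24.5 to 26.7, 21.3 to 30.3, 18.0 to 21.0 and 18.0 to 20.1). Within the side, 50% of the counts lay within 50 and 60 kb in ES replicates 1 and 2, and within 50 and 40 kb in MEF replicates 1 and 2. In contrast, 90% lay within 170 kb in ES replicate 1 and 270 kb in ES replicate 2, compared with 490 and 430 kb in the MEF libraries. These distances also rest on listed windows only, with the same limit beyond Tbx5.

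The profile by position shows where the counts at Tbx3 lie. In ES replicate 1 the window 80 kb from the viewpoint (119672001 to 119682000) held 21.4 per 1000, exactly the value of the window at 10 kb. ES replicate 2 held 29.0 at 80 kb and 18.5 at 10 kb. In MEF replicate 1 the value fell from 19.9 at 10 kb to 5.57 at 80 kb, and in MEF replicate 2 from 20.4 to 4.49. The window at 80 kb thus had 1.00 and 1.57 times the value at 10 kb in ES cells, and 0.281 and 0.220 times in MEFs, a pair of windows chosen after their values were seen.

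**Figure D2:**
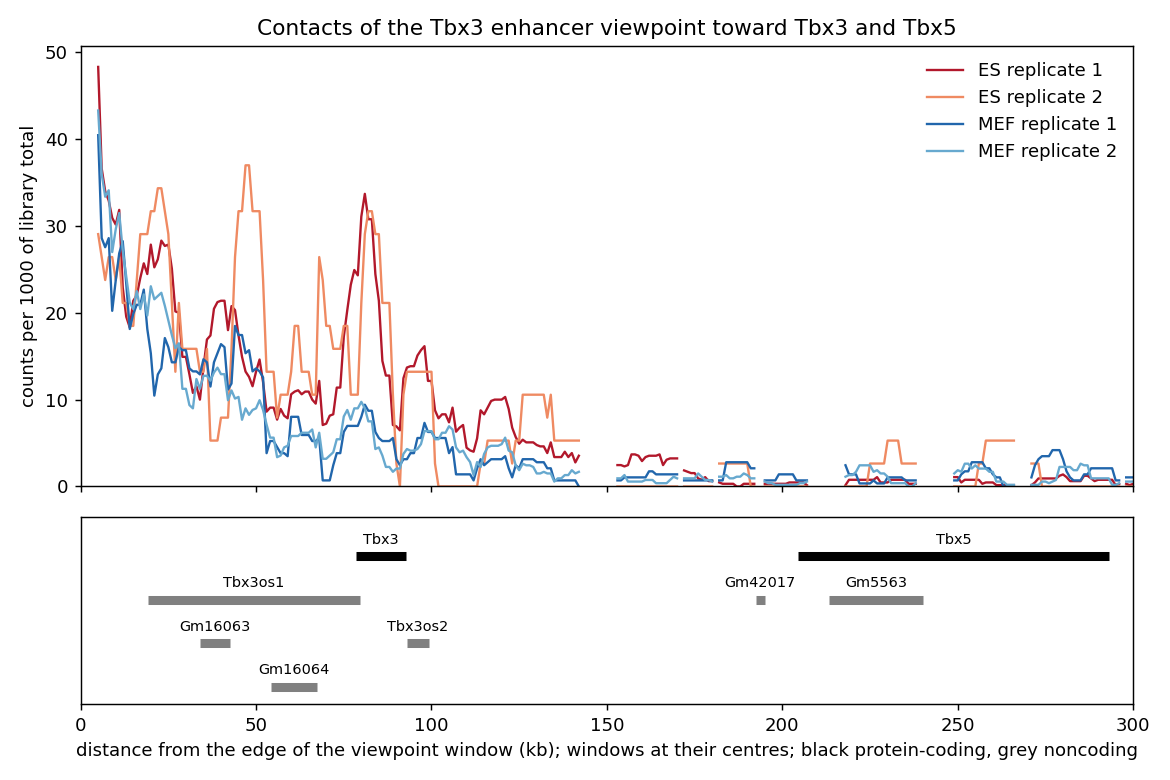
Counts per 1000 of the library total in each listed window (vertical) against distance from the edge of the viewpoint window in kb (horizontal) for the 4 libraries, with genes below and gaps where no window is listed. Near 80 kb, over Tbx3, ES replicates 1 and 2 reach 33.7 and 31.7, and the MEF libraries reach 9.40 and 9.73.

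Windows were tested with limma on log2(value + 1), over all windows of the table that reached 1 per 1000 in 2 or more libraries. Differences are ES minus MEF on that scale, so that changes of low values come out smaller than they are. The limma SE and p-values use a variance shared over all tested windows or loci, many of which overlap, through a trend with intensity. They do not measure how well the replicates of 1 window or locus agree. Without the trend no window of this side was called. Of the 551 windows, 322 were tested and 18 were called at an adjusted p of 0.05, all higher in ES cells. Of all tested windows of this viewpoint 1.71% were called higher in ES cells (21 of 1228) and 0% higher in MEFs. All 18 lie in 1 region of 37 kb, from 119655001 to 119692000, which holds the whole of Tbx3 and Tbx3os2, the end of Tbx3os1 nearest to Tbx3 and the end of Gm16064. At the window of smallest p, 119671001 to 119681000, ES values of 24.4 and 29.0 stood against MEF values of 6.27 and 4.31, from 159, 11, 18 and 23 counts. The ES libraries lay above the MEF libraries, and the log2 difference was 2.15 (limma SE 0.35, adjusted p = 9.9e-07).

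The called windows did not form an unbroken run, and whether they hold separate peaks was not tested. Just before Tbx3, the window 119656001 to 119666000 had the largest log2 difference of the side, 2.41 (limma SE 0.55, adjusted p = 0.00180). Its ES values were 7.07 and 23.7 (SD 11.8), and its MEF values 0.697 and 3.18 (SD 1.76, n = 2 each). The limma SE is the shared one and does not measure that spread. The 23.7 of ES replicate 2 rested on 9 counts, and ES replicate 1 had no rise there. The highest window of ES replicate 1 in the stretch of Tbx3, 119668001 to 119678000, spans the near end of Tbx3, with ES values of 33.7 and 29.0 and MEF values of 9.40 and 8.99. At the Tbx3os2 end, 119682001 to 119692000 had ES values of 13.8 and 13.2 and MEF values of 3.83 and 4.12 (log2 difference 1.54, limma adjusted p = 0.0330). Each window value was a whole sum over 9 pieces of 1 kb, and around Tbx3 this gave the counts of every piece, placed to within 1 kb, with 1 solution. Of the 30 pieces around Tbx3, 10 held no counts in any library, and 20 held counts in ES replicate 1, 8 in ES replicate 2, 14 in MEF replicate 1 and 17 in MEF replicate 2.

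The largest piece of ES replicate 1, 119675001 to 119676000 inside Tbx3, had 52 and 4 counts in the ES libraries and 3 and 6 in the MEF libraries. It held 14.1% of the 370 counts of ES replicate 1 in the 30 pieces. In the piece at 119670001 to 119671000, at the near end of Tbx3 and the largest of MEF replicate 2, the counts were 41 and 1 against 7 and 17, and the groups overlapped per 1000 counts. Both ES libraries lay above both MEF libraries in 6 pieces and below them in 1, with overlap in 13. The other pieces with ES above were those starting at 119663001 (26, 6, 1 and 11 counts), 119672001 (45, 3, 1 and 5), 119676001 (27, 3, 10 and 1), 119687001 (39, 4, 2 and 9) and 119688001 (8, 1, 0 and 3), so they lay before Tbx3, inside it and in Tbx3os2. Single pieces were not tested. ES could lie above only where ES replicate 2 held counts, in 8 pieces, and 1 count there is worth 2.64 per 1000. The share of such pieces over the whole viewpoint was not computed, so their number here is a description only.

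The call at the peak window ended with quantile normalization (limma adjusted p = 0.25), without the intensity trend (0.411) and with DESeq2 on recovered counts (0.129), at log2 differences of 2.06, 2.15 and 2.25. The number of windows called was 168 without ES replicate 1 (77 with ES cells higher, 91 with MEFs higher), where the 379 counts of ES replicate 2 stand alone, and 9, 8 and 7 without ES replicate 2, MEF replicate 1 and MEF replicate 2. On recovered counts, edgeR's quasi-likelihood test called 22 windows of this side with library totals, 16 of them among the 18, and 2 with TMM scaling, both among the 18 (0.163% of tested windows in the table).

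Outside that region no window of this side was called. In the stretch from the viewpoint to Tbx3, 48 of 64 tested windows had a positive log2 difference, with a median of 0.57, and in the Tbx3 stretch 31 of 34, with a median of 1.40. Between Tbx3 and Tbx5 it was 43 of 65 (median 0.26), over Tbx5 17 of 37 (median -0.42) and beyond Tbx5 34 of 122 (median -0.58). Of all 1228 tested windows of this viewpoint, 436 were positive and the median was -0.32. The ES libraries lay above both MEF libraries in 30 of the 34 windows around Tbx3 and in 0 of 37 over Tbx5, against 13.6% of all tested windows. They also did so in 31 of 64 windows before Tbx3, 25 of 65 between Tbx3 and Tbx5 and 8 of 122 beyond Tbx5. They lay below both in 15 of 37 windows over Tbx5 and 55 of 122 beyond, against 29.2%. With ES replicate 2 at 0 and ES replicate 1 under 1, a window passed the filter only if both MEF libraries reached 1. In such windows this order and a negative difference were fixed by the filter. How many windows this covers was not counted, so these counts cannot be read as a difference between the cell types.

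**Figure D3:**
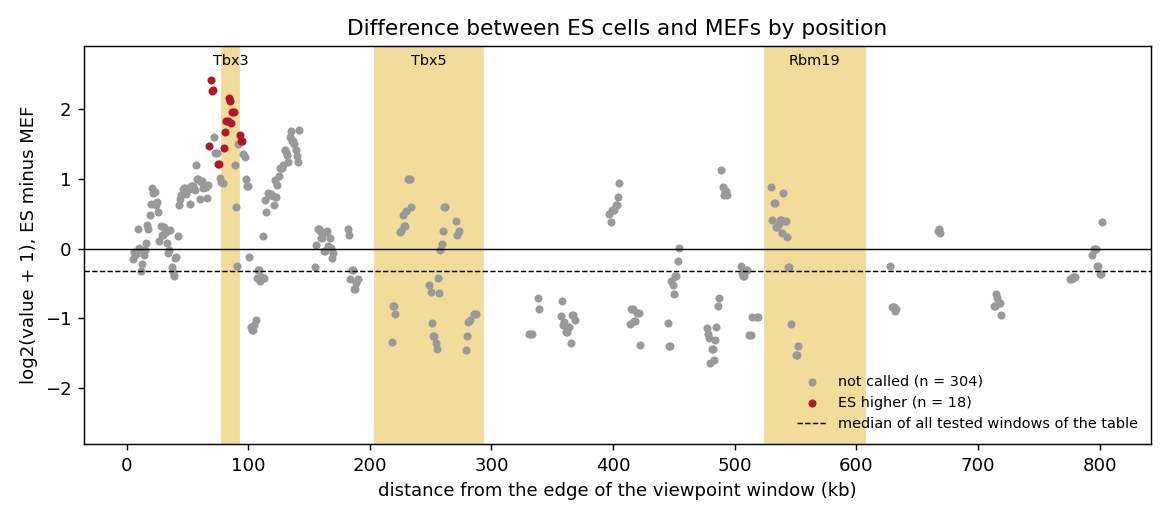
Log2 difference of each tested window, ES minus MEF on the log2(value + 1) scale (vertical), against distance from the viewpoint window in kb (horizontal), with called windows in red, genes as shaded bands and the median of all tested windows, -0.32, as a dashed line. The 18 called windows sit at and just before Tbx3, and beyond Tbx5 most points lie below 0.

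Because single windows hold few counts far out, the counts of these spaced windows were also summed into 50 kb bins, a choice made after the data were seen. With edgeR and library totals, the first 3 bins of the side were called higher in ES cells, and the other 13 tested were not (10.9% of the 46 tested bins of this viewpoint were called, 6.52% with ES cells higher and 4.35% with MEFs higher). From 0 to 50 kb the counts were 836 and 46 for the ES libraries and 311 and 565 for the MEF libraries, a log2 ratio of 0.26 (edgeR adjusted p = 0.00144). From 50 to 100 kb, the bin of Tbx3, they held 471, 33, 77 and 152 (log2 ratio 1.39), and from 100 to 150 kb 156, 5, 26 and 70 (0.96, edgeR adjusted p = 0.0172). With limma the bin of Tbx3 was the only bin of the side called, at a log2 difference of 1.49, where 8.7% of bins were called, 4.35% in each direction. The bin over the nearer part of Tbx5 (200 to 250 kb) had an edgeR log2 ratio of -0.17 and a limma difference of 0.36. The bins over the farther part of Tbx5 (250 to 300 kb) and behind it (300 to 350 kb) had edgeR log2 ratios of -1.22 and -1.50 (edgeR adjusted p = 0.218 and 0.272), with 2 and 0 counts in ES replicate 2.

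By gene, the locus of each gene was taken as the gene with 10 kb on each side and its value as the mean over all listed windows that overlap it. Of 24 genes 23 had windows, 21 of them on this side, 13 passed the filter and 5 were called, all higher in ES cells, where 14.7% of the 34 tested loci of this viewpoint were called by limma and 5.88% by edgeR with TMM. The 5 are Tbx3 and the noncoding genes next to it. Their loci overlap and share windows, so they are not 5 independent calls.

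At Tbx3 the mean per window was 14.3 in ES replicate 1, 14.0 in ES replicate 2, 5.11 in MEF replicate 1 and 5.43 in MEF replicate 2. The ES libraries lay above the MEF libraries, by 1.28 on the log2 scale (limma SE 0.16, adjusted p = 8.1e-10), and edgeR with TMM also called it (adjusted p = 0.00406). Tbx3os2, on its far side, had ES values of 13.3 and 10.6 and MEF values of 4.69 and 4.77 (log2 difference 1.16, limma adjusted p = 1.5e-07; edgeR adjusted p = 0.00406). Gm16064, on the viewpoint side, had ES values of 14.6 and 18.5 and MEF values of 8.20 and 7.20, which differed by 1.01 (limma SE 0.13, adjusted p = 8.1e-10). Closer to the viewpoint, Tbx3os1 had 18.0 and 19.5 against 11.8 and 11.9 (log2 difference 0.62), and Gm16063 17.2 and 20.4 against 13.3 and 12.3 (0.52). In these 5 loci both ES libraries lay above both MEF libraries, as in 17.6% of all tested loci.

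The calls of Tbx3 and Tbx3os2 ended with quantile normalization (limma adjusted p = 0.244 for both), that of Tbx3os2 also with median-centred values (0.0796), and without the trend no locus was called (0.176 for Tbx3, Tbx3os2 and Gm16064; 3 loci of the side at an unadjusted p under 0.05, and 2 called by edgeR with TMM). That of Gm16064 ended with edgeR and TMM (adjusted p = 0.0606) and with a 5 kb flank (limma adjusted p = 0.0899). The calls of Tbx3os1 and Gm16063 also ended when values were rescaled to the counts of this side (limma adjusted p = 0.143 and 0.379), with edgeR and TMM (0.317 and 0.524), and without MEF replicate 1 (0.103 and 0.124) or MEF replicate 2 (0.0978 and 0.33), and Gm16063 had a difference of -0.0399 under quantile normalization. That of Gm16063 further ended with edgeR and library totals (adjusted p = 0.0961), with DESeq2 (0.156), and in limma with a 5 kb flank (0.134) and for the gene alone (0.138). Under quantile normalization the call of Tbx3os1 ended as well, at a difference of 0.0399 (limma adjusted p = 0.588).

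Tbx5, the next T-box gene, had ES values of 0.567 and 1.23 and MEF values of 1.42 and 1.04. The groups overlapped, and the log2 difference was -0.25 (limma SE 0.64, adjusted p = 0.809). Gm5563, a noncoding gene inside Tbx5, had 0.594 and 1.28 against 1.02 and 1.10 (-0.11). In the Tbx5 stretch, the highest window by ES mean, 119818001 to 119828000, rested on 5 and 2 ES counts and 3 and 2 MEF counts, and the highest by MEF mean, 119866001 to 119876000, on 8 and 0 ES counts and 12 and 12 MEF counts. Neither passed the test (limma adjusted p = 0.692 and 0.529).

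Farther out, Gm31773 and Gm38554, neighbouring noncoding genes about 367 kb away, were listed at 0 in ES replicate 2 and held 0.746 and 0.711 in ES replicate 1, below both MEF libraries (1.49 and 1.57 for Gm31773, 1.42 and 1.40 for Gm38554). Neither passed the test (limma adjusted p = 0.43 and 0.452), but without ES replicate 1 both were called higher in MEFs (limma adjusted p = 0.0206 and 0.0203), where ES replicate 2 at 0 stood alone. Rbm19, which encodes an RNA-binding protein of ribosome production, had 0.472 and 1.76 against 1.03 and 0.929 (log2 difference 0.03, limma adjusted p = 0.968), so that its ES libraries lay on either side of the MEF libraries. Gm10390, inside Rbm19, had 0.316 and 2.71 against 1.06 and 1.05, and without ES replicate 2 it was called higher in MEFs (log2 difference -0.65, limma adjusted p = 0.00694). Gm42019 held 0.477 and 0.972 against 2.36 and 1.21, and Gm31836 1.13 and 0 against 1.63 and 0.864 (limma adjusted p = 0.593 and 0.631). Both ES libraries lay below both MEF libraries at Gm31773, Gm38554 and Gm42019, as in 26.5% of all tested loci. Both ES values were under 1 at each of them, so they passed the filter only through the MEF libraries. Their order was thus fixed by the filter and is no result about these loci.

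**Figure D4:**
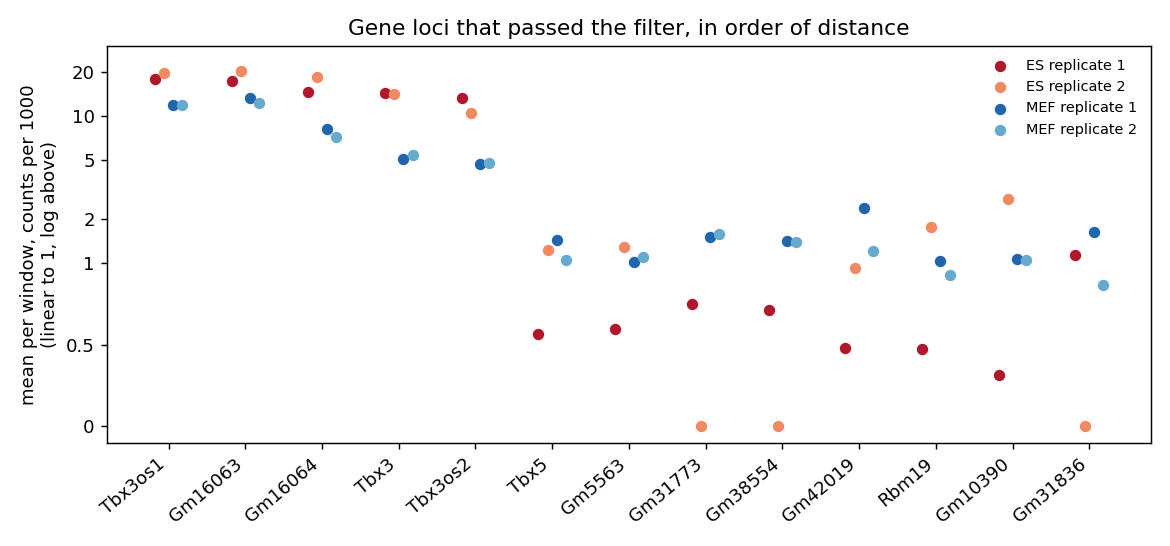
Mean value per window of each of the 13 gene loci that passed the filter (counts per 1000; linear to 1 and log above) for the 4 libraries, in order of distance from the viewpoint. In the 5 loci from Tbx3os1 to Tbx3os2 both ES points lie above both MEF points, and from Tbx5 on the libraries lie at 2.71 or below.

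The other 10 loci with windows did not pass the filter, with group means from 0.205 to 0.878 in ES cells and from 0.442 to 1.08 in MEFs. They are Gm42017, Gm42018, Gm27199, Gm31976, the homeobox gene Lhx5, the serine dehydratase genes Sdsl and Sds, and Plbd2, Tpcn1 and Iqcd. The listed windows of Tpcn1 and Iqcd start past the end of this side. Slc8b1 had no listed window. Of a list of 15 genes around Tbx3, 12 lie on this side, 11 had windows, 7 were tested and 5 were higher in ES cells, 0 in MEFs, with Tbx5 and Rbm19 not passing.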

How the data were processed

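Contacts were measured by 4C-seq in 2 ES and 2 MEF libraries of the Tbx3 enhancer viewpoint, cut with DpnII and then Csp6I per the labels' protocols. Bowtie 1.0.0, edgeR and mm10 appear in the submitters' processing notes without a role, and the sources used here do not say how windows were counted. The deposited values are CPM by name, but every value was a whole multiple of 1000 divided by a whole number (100% in each library, tolerance 0.01 count). They were read as counts per 1000 of that total, a scale worked out from the values. The window of highest mean value, which starts at 119582001, was taken as the viewpoint.

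The main test was limma 3.58.1 in R 4.3.3 (lmFit, eBayes with trend) over the whole viewpoint table, two-sided, with Benjamini-Hochberg adjustment. The filter kept values of at least 1 in at least 2 libraries. For loci the same fit ran on means over windows, with edgeR 4.0.16 and DESeq2 1.42.0 on mean counts rounded to whole numbers. Called windows of the same sign within 20 kb of each other formed a region. Named items are these regions at their window of smallest p, the highest windows of a stretch, a list of 15 genes (14 matched the gene table, all but Tbx5os) and all other genes of the side that passed the filter. A few further windows were named after their values were seen. Members, lists and tests were chosen with earlier results of these data known.

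The fits were tested on simulated data, with windows drawn independently. Over all windows, limma recovered 4.26% of changes of 1 log2 unit and 27.4% of changes of 2. The edgeR fit with TMM recovered 2.13% and 50%. At a mean of at least 5 per 1000, limma recovered 18.2% and 72.7%, and edgeR 0% and 86.4%. Each fit called 0.195% of unchanged windows. A window that was not called may therefore still differ. Window values were whole sums of 9 pieces of 1 kb in all 404 sets of counts (a run of windows in a library). With any other number from 6 to 13, at least 63 sets had no solution. A chi-square test of the replicate pairs gave p = 0.422 for ES and 0.203 for MEF. It used the 13 spaced windows up to 119722000 and pooled all farther counts of the side into 1 sum. It takes reads as independent and had expected counts down to 1.87, so it had little power, and each pair was kept as 2 libraries because the labels list them as such. Figures were drawn with matplotlib 3.10.9.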

Additional observations from a re-analysis of the deposited data

How the results depend on the processing

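The counts of called windows on this side, 18 in the report, were 9 with the filter at 3, 38 with median-centred values, 8 after rescaling to the side, 9 with the ES libraries summed as 1 sample (added after the data were seen), 3 of 29 among windows that do not overlap, and 2 with edgeR and TMM. They were 0 with quantile normalization, without the trend (both limma) and with DESeq2, with 46, 38 and 23 windows at an unadjusted p under 0.05. Leaving out a library gave 7 to 168 windows. Of the 50 kb bins, 3 were called by edgeR and 1 by limma. The gene loci, 5 in the report, were 2 with edgeR and TMM, 1 with quantile normalization, 3 after rescaling to the side, 0 without the trend, 3 with a 5 kb flank, and 3 to 7 without a library. In each alternative that kept all 4 libraries, called windows and loci were higher in ES cells. The numbering of replicates pairs nothing in the labels (correlation of the pairs' deviations -0.09), and with a replicate block 12 windows and 5 loci were called.

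The ratio of ES to MEF shares turned between the viewpoint and Tbx3, where it was 1.25 of library totals and 0.939 of the counts of the side, and at Tbx5 (0.780) without ES replicate 1. With tiles 5 kb later it was 1.31 before Tbx3, 2.86 at Tbx3 (3.50 in the report) and 1.37 over the side (1.33). With windows every 9 kb, which leave no gap (added after the data were seen), it was 1.32 before Tbx3, 3.07 at Tbx3 and 1.36 over the side. As a share of the side it was 2.63 at Tbx3 and 0.466 beyond Tbx5 (0.619). Without a library it ranged from 1.24 to 1.26 before Tbx3, 3.24 to 3.75 at Tbx3, 1.00 to 2.01 behind it, 0.496 to 1.06 at Tbx5, 0.573 to 0.673 beyond and 1.31 to 1.35 over the side.

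Of the called loci Gm16063 (0.52) changed sign, and had -0.0399 with quantile normalization. Of the loci not called, Tbx5 had 0.0049 without ES replicate 1. Gm5563 had 0.21 with quantile normalization, 0.15 to -0.37 when a library was left out, 0.11 with a 5 kb flank and 0.17 for the gene alone. Rbm19 and Gm10390 had -0.64 and -1.19 with edgeR and TMM, -0.70 and -1.25 with edgeR and library totals, -0.0293 and -0.0153 with a pseudocount of 0.25, -0.18 and -0.11 after rescaling to the side, -0.36 and -0.51 with the ES libraries summed, and -0.21 and -0.62 with DESeq2. With a library left out Gm10390 ranged from -0.65 to 0.85. Rbm19 had 0.48 without ES replicate 1 and -0.0117 without MEF replicate 2. It did not pass the filter without ES replicate 2 or without MEF replicate 1, so it has no value there. The causes were not tested. ES replicate 2 had 4 counts over Tbx5 and 8 beyond it, so shares there are known only within its wide intervals.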
